A study of Mus musculus with 8 samples.

Results

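The 84 nuclear genes for subunits of the respiratory chain and ATP synthase were followed across 4 groups of mouse macrophages. They were chosen by symbol from a table of 53715 genes: protein-coding genes whose names begin with Nduf, Sdh, Uqcr, Cox or Atp5 in the forms used for complexes I to IV and ATP synthase (complex V). Complex I had 37 of them, complex II 4, complex III 8, complex IV 18 and complex V 17. Another 12 rows with matching names were left out as processed pseudogenes or as a non-coding transcript. The naming rule uses no values of this table, although the list was chosen with earlier results of these data known.

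The cells were Sting-/- macrophages, which lack the endogenous STING adaptor, with a stable transgene. The group labelled none carried the vector MSCV2.2 and is called no_transgene here. The others expressed mSTING (mouse STING), dCTT (STING without its C-terminal tail) or zfCTT (STING with the tail of the zebrafish protein); the last pair are read from their names and the study's title. Every group received 500 µg/ml of CMA, a small molecule that activates mouse STING, for 4 h, so all contrasts are between treated cells and no untreated library was analysed here. Each group had 2 libraries of polyadenylated RNA, with 20.05 to 171.4 M reads. The labels do not say that these 2 came from separate cultures, so the p-values below measure only the spread between libraries, which may be technical. How the transgenes were selected, and whether a line came from 1 clone, is not given in the sources used here.

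RPKM counts the reads of a gene per kilobase of its model, scaled to the reads of the library. Of 8 macrophage markers 7 came to 1 RPKM or more in 2 libraries. Their summed level was 965 to 1144 RPKM in no_transgene, 539 to 767 in mSTING, 839 to 891 in dCTT and 625 to 806 in zfCTT. The marker lists of T cells, B cells, neutrophils, fibroblasts and epithelium had no gene reaching 1, and none of these lists summed to more than 0.178 RPKM in a library. Tmem173, the gene of STING, stood at 3.23 and 2.42 RPKM in no_transgene and at 10.6 to 22.7 in the other 6 libraries, with no overlap. The kind of Sting-/- allele is not given in the labels. In bulk RNA, fewer cells of a type and less RNA per cell cannot be told apart.

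The respiratory chain moves electrons from NADH (complex I) and succinate (complex II) through coenzyme Q, complex III, cytochrome c and complex IV to oxygen. Complexes I, III and IV pump protons across the inner mitochondrial membrane, and ATP synthase uses that gradient to make ATP. Most subunits come from nuclear genes and are imported, while a few core subunits are encoded by mitochondrial DNA, so each complex except II is built from both genomes. In macrophages the chain is known for its change of use during activation, when glycolysis increases and complexes I and II can give signals through succinate and reactive oxygen.

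Many promoters of these genes are known for sites of the factors NRF1, ETS-family GABP, YY1 and ERR alpha. RefSeq windows of GRCm38.p6, from 250 bases before to 50 bases after the start, were found for 68 of the 84 genes (73 windows). They were searched on both strands for 4 motifs. The NRF1 motif, GCGCA and GCGC with any 1 base between them, stood in 24.7% of these windows against 6.38% of 21263 windows of protein-coding genes, and CCGGAAG (ETS) in 21.9% against 11.6%. AAGATGGC (YY1) stood in 13.7% against 3.05%, and AAGGTCA (ERR) in 11.0% against 4.08%. At least 1 of the 4 was found in 53.4% of the members' windows and in 22.4% of all. These motifs do not contain each other, although matches can lie side by side. A match is a description of the letters, not evidence of binding.

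The 120 bases before the start are shown for 4 genes that the comparisons below turn on and for Sdhd, which shares a complex with Sdha. The end of each is just before the start in RefSeq or GENCODE, whichever lies further upstream, and capitals mark matches. The windows are Sdha chr13:74350281-74350400 (minus strand), Sdhd chr9:50603850-50603969 (minus), Ndufb4 chr16:37654454-37654573 (minus), Uqcr11 chr10:80406831-80406950 (minus) and Cox7b chrX:106015580-106015699 (plus).
Sdha: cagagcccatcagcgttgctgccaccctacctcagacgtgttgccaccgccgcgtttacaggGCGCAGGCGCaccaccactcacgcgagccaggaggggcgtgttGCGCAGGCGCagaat
Sdhd: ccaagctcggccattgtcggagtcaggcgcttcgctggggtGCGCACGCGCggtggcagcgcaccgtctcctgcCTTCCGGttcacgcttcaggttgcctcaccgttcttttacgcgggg
Ndufb4: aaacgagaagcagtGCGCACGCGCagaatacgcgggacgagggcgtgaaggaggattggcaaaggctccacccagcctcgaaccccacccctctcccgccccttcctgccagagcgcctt
Uqcr11: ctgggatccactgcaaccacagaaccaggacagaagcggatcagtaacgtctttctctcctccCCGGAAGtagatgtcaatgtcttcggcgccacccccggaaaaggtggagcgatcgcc
Cox7b: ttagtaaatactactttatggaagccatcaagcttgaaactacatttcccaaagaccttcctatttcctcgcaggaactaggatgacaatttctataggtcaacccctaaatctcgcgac
Sdha had 2 NRF1 matches, beginning 58 and 15 bases before the end of the stretch. Sdhd had 1 NRF1 match and 1 ETS match, Ndufb4 had 1 NRF1 match and Uqcr11 had 1 ETS match. Cox7b had no match here, which says only that these letters are not in this stretch.

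The subunit genes were expressed far above the typical gene. A gene was tested where 2 or more of the 8 libraries held it at 1 RPKM or above, which 78 members did. Their mean level over the libraries had a median of 78.0 RPKM, against 6.82 for all 13475 genes tested. By complex the medians were 64.1 RPKM for complex I, 63.6 for II, 99.9 for III, 132 for IV and 94.6 for V. Together the 84 genes held 0.975% to 1.18% of the summed RPKM of a library. Their share was lowest in dCTT replicate 1 and highest in no_transgene replicate 2 and mSTING replicate 2, a range of less than 1.5 times.

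Levels within a complex differed far more than levels between groups. Complex IV held the most abundant member, Cox8a, a small membrane subunit, with 853 and 902 RPKM in no_transgene, 826 and 867 in mSTING, 752 and 855 in dCTT and 801 and 740 in zfCTT. Both zfCTT libraries lay below those of no_transgene and of mSTING, while the other pairs of groups overlapped. The highest library stood 1.22-fold above the lowest. In complex I the highest was Ndufa2 (257 RPKM on average) and the lowest Ndufs1 (2.98), the largest of the core subunits and a carrier of iron-sulfur clusters. In complex III the highest was Uqcr10 (384) and the lowest Uqcrb (6.45), both small subunits. In complex V the highest was Atp5d (306), the delta subunit of the central stalk, and the lowest Atp5s (1.50), which is known as coupling factor B. Complex II ran from Sdha (28.8) to Sdhd (100).

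**Figure D1:**
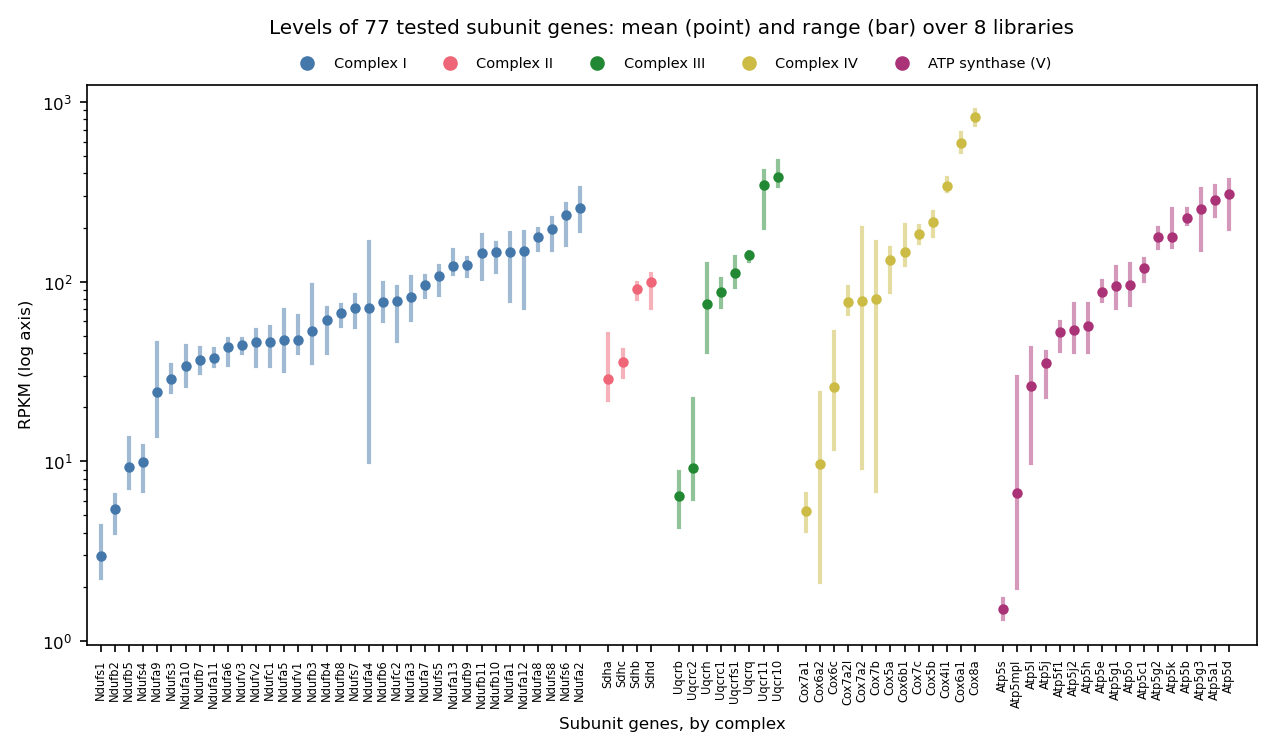
Mean RPKM over 8 libraries (points, log axis) and the range over the libraries (bars) for 77 of the tested subunit genes, ordered by mean within each complex. Cox8a (824 RPKM) is the highest and Atp5s (1.50) the lowest, and the long bars belong to Ndufa4, Cox7a2, Cox7b, Cox6a2 and Atp5mpl.

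RPKM divides by the length of the whole gene model, which can be much longer than the coding transcript. For Atp5l the model's exons cover 11.8 times the longest protein-coding transcript, and for Ndufb7 they cover 7.26 times. Counted per kilobase of that transcript, Atp5l moved from rank 66 to rank 15 of the members and Ndufb7 from 60 to 19. By complex the medians per kilobase of that transcript were 109 for I, 70.5 for II, 170 for III, 168 for IV and 226 for V. In complex I the highest was then Ndufa7 (331) and the lowest Ndufb2 (7.03). Complex II then ran from Sdhc (36.7) to Sdhb (179), and the highest of complex V was Atp5g3 (771). The order of levels between genes and between complexes is therefore tied to the gene model.

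Where a subunit has isoforms, the widely expressed one led, with 2 exceptions. All 3 c-ring genes were abundant, and Cox7a2 and Cox7a2l had like averages. Cox4i1 lay between 319 and 379 RPKM, whereas Cox4i2, the isoform known from lung, reached 0.778 RPKM at most and had 1 and 2 reads in the zfCTT libraries. Cox6a1 lay between 526 and 675 RPKM and the muscle isoform Cox6a2 between 2.13 and 24.1. Cox8a was abundant as above, whereas Cox8b and Cox8c, known from muscle and testis, had 0 reads in all 8 libraries. In zfCTT replicate 1, the shallowest library, 0 reads allow up to 0.416 RPKM of Cox8b and 0.327 of Cox8c (3 reads, counting error only).

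The same held for the remaining pairs, apart from Cox7a2 with Cox7a2l. Which of these was higher differed between libraries. In no_transgene Cox7a2 stood at 198 and 35.8 RPKM and Cox7a2l at 93.9 and 77.7. Cox6b1 averaged 147 RPKM, and Cox6b2 had at most 0.0205 RPKM. Cox7b2 had 0 reads in every library, against an average of 79.8 RPKM for Cox7b. Cox7a1, the muscle isoform, averaged 5.28 RPKM with a 1.60-fold range, while Cox7a2 averaged 78.0 and Cox7a2l, known for joining complexes III and IV, averaged 77.4. Ndufa4, counted under complex I by its name but now taken as a complex IV subunit, averaged 71.5 RPKM, against 0.120 for Ndufa4l2. The 3 genes for the c-ring of ATP synthase, Atp5g1, Atp5g2 and Atp5g3, averaged 94.6, 177 and 255 RPKM. Ndufa4l2, Cox4i2, Cox6b2, Cox7b2, Cox8b and Cox8c are the 6 members that did not pass the filter and were not tested.

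The first question was whether any construct shifted these genes, and zfCTT against no_transgene is given first. None of the 78 tested members passed the test (limma on log2(RPKM + 1), adjusted p under 0.05 over all tested genes), while 1.08% of all tested genes did. At an unadjusted p under 0.05 there were 10 members, against 13.4% of all genes. The limma fit on reads recovered from the RPKM also called 0 members, beside 48 of 13457 genes. It put 9 members at an unadjusted p under 0.05, without a share of all genes to set beside them. The members' median difference was -0.16 on the log2 scale, beside -0.04 over all genes. Of the 78 members 55 (70.5%) were negative, beside 54.7% of all genes.

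In 25 of the 78 members (32.1%) both zfCTT libraries lay below both no_transgene libraries, beside 20.8% of all genes. In 10 (12.8%) both lay above, beside 18.8%. By complex, the median differences were -0.13 for I, 0.0 for II, -0.35 for III, -0.23 for IV and -0.11 for V. Complex IV had 12 of 13 members negative and complex III 6 of 8.

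Sdha, the flavoprotein that oxidises succinate and links complex II to the citric acid cycle, had the largest positive difference in zfCTT. It lies on chromosome 13 from 74322254 to 74350280. Sdha stood at 29.6 and 22.0 RPKM in no_transgene, 21.8 and 21.9 in mSTING, 27.1 and 22.2 in dCTT, and 51.3 and 34.8 in zfCTT. Both zfCTT libraries were above the other 6, and the 2 differed by more RPKM than the 2 libraries of any other group. The difference from no_transgene was 0.71 ± 0.25 (SE; 95% interval 0.11 to 1.30; limma adjusted p = 0.299). Against mSTING it was 0.92 ± 0.25 (adjusted p = 0.370), and against dCTT 0.76 ± 0.25 (limma adjusted p = 0.274). None passed the threshold. Without zfCTT replicate 1 the difference was 0.43 from no_transgene and 0.49 from dCTT.

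The other 3 subunits of complex II had smaller differences. Sdhb, the iron-sulfur subunit, stood at 90.6 and 93.2 RPKM in no_transgene and 90.4 and 86.8 in zfCTT. Sdhc, a membrane anchor, stood at 41.7 and 36.2 RPKM in no_transgene and 39.9 and 32.8 in zfCTT. Sdhd, the second anchor, stood at 102 and 107 RPKM in no_transgene, 71.3 and 103 in mSTING, 98.3 and 102 in dCTT, and 107 and 110 in zfCTT. As for Sdha, both zfCTT libraries of Sdhd were above the other 6, but the lowest of them and the highest of the others round to the same value. Sdhd differed by 0.34 from mSTING (limma adjusted p = 0.529) and by 0.11 from dCTT (limma adjusted p = 0.872). For Sdhb, Sdhc and Sdhd the differences from no_transgene were -0.05, -0.10 and 0.06, and the difference between Sdha and these 3 was not tested.

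**Figure D2:**
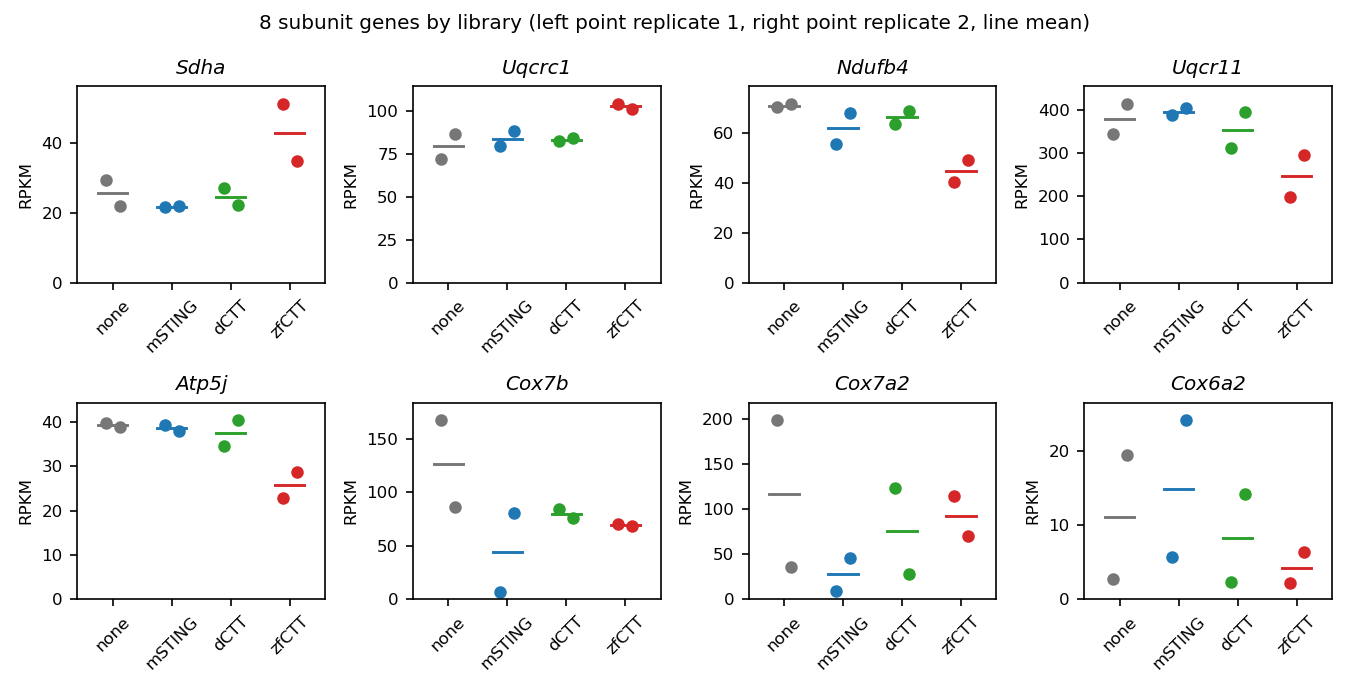
RPKM of 8 subunit genes by library (points: replicate 1 left, replicate 2 right; lines: group means; each axis starts at 0). Sdha and Uqcrc1 are highest and Ndufb4, Uqcr11 and Atp5j lowest in both zfCTT libraries; Cox7b and Cox7a2 are low in 1 mSTING library, and Cox6a2 is higher in replicate 2 of every group.

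Some core subunits of complexes I and III also had positive differences in zfCTT. Uqcrc1, a core protein of complex III, stood at 72.1 and 86.7 RPKM in no_transgene, 79.4 and 88.1 in mSTING, 82.4 and 84.1 in dCTT, and 104 and 101 in zfCTT. Both zfCTT libraries lay above the other 6. The difference from no_transgene was 0.37 ± 0.17 (95% interval -0.04 to 0.79; limma adjusted p = 0.418), and 0.24 without no_transgene replicate 1.

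Ndufv1, which binds NADH and the flavin FMN, stood at 40.0 and 42.2 RPKM in no_transgene and at 64.6 and 48.0 in zfCTT. The mSTING value of 53.0 and the dCTT value of 49.3, both replicate 1, overlapped with zfCTT. Ndufs1 stood at 3.52 and 2.24 RPKM in no_transgene, 2.80 and 2.72 in mSTING, 2.46 and 2.41 in dCTT, and 4.34 and 3.38 in zfCTT. Only no_transgene replicate 1 came within the zfCTT range. Ndufb6, an accessory subunit, differed from no_transgene by 0.38 but its zfCTT values of 75.2 and 98.7 RPKM overlapped with mSTING at 76.8 and 87.5. Without zfCTT replicate 2 the difference of Ndufb6 was 0.18, and without no_transgene replicate 1 it was 0.25. Part of Ndufb6 (31.6% of its 50-base stretches) is shared with Smim27 on the opposite strand, and its value is uncertain without strand.

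Other core subunits of complex I differed less or in the opposite direction. The differences between zfCTT and no_transgene were 0.10 for Ndufs3, and -0.14 for Ndufs7, 0.26 for Ndufs8 and -0.39 for Ndufv2, which carry iron-sulfur clusters. Uqcrfs1, the Rieske iron-sulfur protein of complex III, differed by 0.25. In complex IV, the differences were -0.03 for Cox4i1, -0.36 for Cox5a and -0.14 for Cox5b. In ATP synthase, Atp5a1 (alpha) differed by -0.07, the catalytic Atp5b (beta) by 0.11 and Atp5c1 (gamma) by 0.02.

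Several small accessory subunits had lower values in zfCTT. Ndufb4, in the membrane arm of complex I (chromosome 16, 37647170 to 37654453), stood at 70.2 and 71.6 RPKM in no_transgene, 55.7 and 68.0 in mSTING, 63.7 and 68.6 in dCTT, and 40.3 and 49.1 in zfCTT. Both zfCTT libraries were below the other 6. The difference from no_transgene was -0.66 ± 0.19 (95% interval -1.11 to -0.21), with a limma adjusted p = 0.194, the smallest of any member in this comparison. Against mSTING it was -0.46 (limma adjusted p = 0.454) and against dCTT -0.56 (limma adjusted p = 0.284). Ndufb4 shares 37.0% of its 50-base stretches with other genes, among them 3 pseudogenes, so reads may be divided between copies.

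Uqcr11, a small subunit of complex III (chromosome 10, 80402997 to 80406830), stood at 343 and 413 RPKM in no_transgene, 387 and 403 in mSTING, 311 and 395 in dCTT, and 198 and 294 in zfCTT. Its difference from no_transgene was -0.64 ± 0.25 (limma adjusted p = 0.344). Atp5j, coupling factor 6 in the peripheral stalk of ATP synthase, stood at 39.7 and 38.9, 39.3 and 38.0, 34.5 and 40.4, and 22.8 and 28.7 RPKM in the same order. Its difference was -0.60 ± 0.18 (limma adjusted p = 0.227). For both genes the zfCTT libraries lay below the other 6, and neither difference passed the test. Without zfCTT replicate 1 the difference of Uqcr11 was -0.36. Exons of Atp5j overlap those of Gabpa on the opposite strand, which stood at 12.5 and 13.6 RPKM in no_transgene and 9.19 and 10.8 in zfCTT, and reads of the pair cannot be told apart without strand.

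Ndufc2, a membrane-arm subunit of complex I, stood at 81.8 and 93.7 RPKM in no_transgene and 46.9 and 71.7 in zfCTT. Its difference from dCTT was -0.52 ± 0.23 (limma adjusted p = 0.427), which became -0.22 without zfCTT replicate 1 and -0.82 without zfCTT replicate 2. Ndufb11 differed from mSTING by -0.55 and Uqcrb by -0.61, both with no overlap of libraries and neither past the threshold. Uqcrb shares 43.4% of its stretches with other genes, 4 of them pseudogenes.

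**Figure D3:**
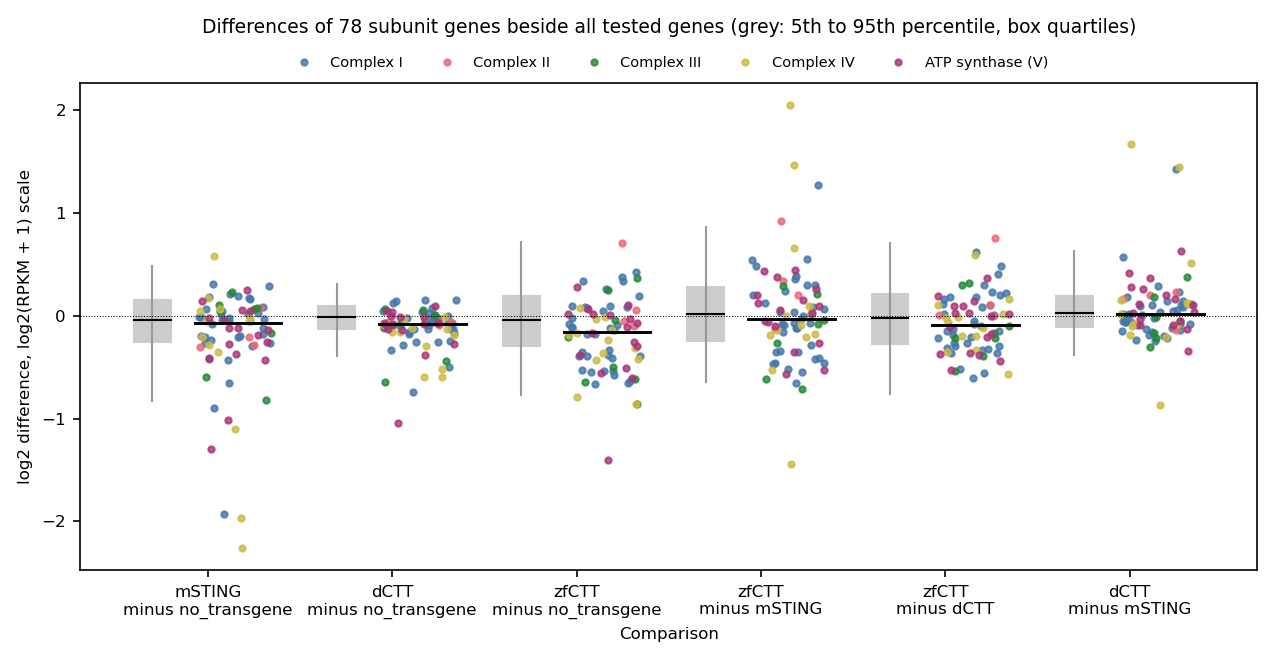
Differences between groups on the log2(RPKM + 1) scale for the 78 tested subunit genes (points by complex, black line the median) beside all 13475 tested genes (grey box quartiles, line 5th to 95th percentile) in 6 comparisons. The members' medians lie between -0.16 and 0.02, and the points farthest below 0 are Cox7b, Cox7a2 and Ndufa4 in mSTING minus no_transgene.

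The members' differences between zfCTT and no_transgene tended to be lower for shorter transcripts. Spearman's rho between the length of the longest protein-coding transcript and the difference was 0.41 over the 78 members and 0.14 over 9385 tested protein-coding genes, as a description over genes that share the same libraries. The 20 members over 1500 bases had a median of 0.04, with 11 positive and 9 negative. The 58 members of 1500 bases or shorter had a median of -0.24, with 12 positive and 46 negative. Over all protein-coding genes the medians were 0.0 for 7745 longer and -0.14 for 1640 shorter genes. Most of these subunits are small proteins, Sdha (2900 bases) and Uqcrc1 (1653) being among the longer transcripts and Uqcr11 (445) among the shorter. The part of transcript length in the differences was not tested. In a fit with the trend over another length removed, that of the gene model's exons, the members' median was -0.11 and none passed.

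The members were also split by the motifs in their promoter windows. The 17 tested members with an NRF1 match had a median difference of 0.01 between zfCTT and no_transgene, and the 48 with a window but no match had -0.18. For ETS the medians were -0.18 with and -0.14 without, and for YY1 they were also -0.18 and -0.14. For ERR they were -0.27 in 8 members with a match and -0.14 in 57 without. Among the genes printed above, Sdha and Ndufb4 both have NRF1 letters, and neither passed the threshold. Sdha was higher and Ndufb4 lower in zfCTT than in no_transgene. Whether the motifs bear on the differences was not tested.

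Against mSTING, zfCTT had 0 of 78 members past the limma threshold, beside 0.119% of all genes, and 6 members at an unadjusted p under 0.05, beside 11.0%. The fit on recovered reads called 0 members as well, beside 8 of 13457 genes. It put 7 members at an unadjusted p under 0.05 (share of all genes not given). The median difference was -0.03, beside 0.01 over all genes. Both zfCTT libraries lay above both mSTING libraries for 12 members (15.4%, beside 24.9% of all genes) and below for 22 (28.2%, beside 24.4%). Cox7a2 (2.05 ± 1.10) and Ndufa9 (0.49 ± 0.42) were among the 4 largest positive differences without overlap, as was Sdha. Cox7a2 and Ndufa9 had their lowest value in mSTING replicate 1, without which the differences were 0.94 and 0.30. Without mSTING replicate 2 that of Cox7a2 was 3.15, and without zfCTT replicate 1 that of Ndufa9 was 0.27.

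Against dCTT, zfCTT again had 0 of 78 members past the limma threshold, beside 1.08% of all genes, and 3 members at an unadjusted p under 0.05, beside 12.7%. The fit on recovered reads also called 0 members, beside 157 of 13457 genes. It put 4 members at an unadjusted p under 0.05 (share of all genes not given). The median was -0.09, beside -0.02 over all genes. Both zfCTT libraries lay above dCTT for 12 members (beside 20.1% of all genes) and below for 21 (26.9%, beside 24.7%). Ndufs1 (0.49 ± 0.21) and Atp5f1 (0.37 ± 0.20), the b subunit of the peripheral stalk, were with Sdha among the 4 largest positive differences without overlap. Ndufb3 (0.62) and Cox7a2 (0.59) had larger differences than Ndufs1, but their libraries overlapped. For Atp5f1, 37.6% of its stretches are shared with other genes. The 3 contrasts of zfCTT share the 2 zfCTT libraries, so they are not independent of each other.

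The full-length mouse protein was compared with no_transgene next. No member passed (0 of 78, beside 0.0% of all genes), and 1 member, Cox6c, had an unadjusted p under 0.05, beside 3.47% of all genes. The fit on recovered reads called 0 of all 13457 genes. It put 5 members at an unadjusted p under 0.05, and without the share of all genes this count cannot be read as high or low. The median difference was -0.07, beside -0.04 over all genes. Both mSTING libraries lay below both no_transgene libraries for 22 members (28.2%, beside 17.0% of all genes) and above for 8 (10.3%, beside 15.3%). The 4 largest positive differences without overlap were in Ndufb6 (0.31), Ndufs8 (0.29), Uqcrfs1 (0.23) and Ndufs7 (0.21), with limma adjusted p = 0.840 for each. Each moved by over 1.5 times in a fit without 1 library. Without no_transgene replicate 1 the difference was 0.18 for Ndufb6 and 0.08 for Ndufs8, and without mSTING replicate 1 it was 0.06 for Uqcrfs1 and 0.12 for Ndufs7. In the other direction, Ndufs8 reached 0.50 without no_transgene replicate 2 and Uqcrfs1 0.40 without mSTING replicate 2.

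Several negative differences in mSTING came with 1 library far from its replicate. Cox7b, a small complex IV subunit, stood at 167 and 86.2 RPKM in no_transgene, 6.80 and 80.8 in mSTING, 83.8 and 75.6 in dCTT, and 70.2 and 68.0 in zfCTT. The value of 6.80, from 728 reads in mSTING replicate 1, was 24.5-fold below the highest library and stood alone. The difference of mSTING from no_transgene was -2.26 ± 0.98 (95% interval -4.60 to 0.09; limma adjusted p = 0.840). Over the alternatives that each changed 1 choice or left out libraries, it ran from -3.95 to -0.56, the latter without mSTING replicate 1.

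Other members had their lowest value in the same library. Cox7a2 stood at 198 and 35.8 RPKM in no_transgene, 9.17 and 46.1 in mSTING, 123 and 28.0 in dCTT, and 114 and 70.3 in zfCTT. Ndufa4 stood at 166 and 59.8, 9.93 and 63.1, 94.3 and 52.2, and 68.9 and 57.6 RPKM in the same order. Cox6c stood at 52.1 and 23.5, 11.7 and 21.4, 25.2 and 20.9, and 32.3 and 20.4 RPKM. In all 3 genes replicate 1 was above replicate 2 in no_transgene, dCTT and zfCTT and below it in mSTING.

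Atp5l, the g subunit of ATP synthase, stood at 42.6 and 28.4 RPKM in no_transgene and at 9.80 and 28.2 in mSTING; Atp5l shares 84.8% of its stretches with other genes, 12 of them pseudogenes. Cox7a2 and Ndufa4 share none, Cox7b shares 0.6% and Cox6c shares 9.0%. Ndufa9, an accessory subunit near the quinone site, stood at 45.5 and 20.4 RPKM in no_transgene and 13.8 and 18.3 in mSTING. Without mSTING replicate 1 the difference from no_transgene was -0.69 for Cox6c and -0.29 for Atp5l. Without no_transgene replicate 1 it was -0.54 for Cox6c and -0.34 for Ndufa9. Of the 78 tested members, 24 (30.8%) had their lowest value in mSTING replicate 1, beside 20.7% of all tested genes, and 27 (34.6%) in zfCTT replicate 1, beside 24.7%.

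A second library stood out at the high end. In no_transgene replicate 1, 25 members (32.1%) had their highest value, beside 22.4% of all genes. Uqcrc2, a core protein of complex III, stood at 22.1 and 7.02 RPKM in no_transgene and between 6.17 and 8.35 in the other 6 libraries. Part of Uqcrc2 (24.2% of its 50-base stretches) is shared with Pdzd9 on the opposite strand, and its value is uncertain without strand. Atp5mpl, a small membrane protein of ATP synthase, stood at 29.5 and 2.44 RPKM in no_transgene and between 1.98 and 5.65 in the others. For both genes no_transgene replicate 1 was far above all others, and no_transgene replicate 2 lay within the range of the transgene libraries. For Uqcrc2, zfCTT differed from no_transgene by -0.86 ± 0.45 (limma adjusted p = 0.476), and by -0.09 without no_transgene replicate 1.

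Cox6a2 differed by replicate number in every group. It stood at 2.70 and 19.4 RPKM in no_transgene, 5.71 and 24.1 in mSTING, 2.32 and 14.2 in dCTT, and 2.13 and 6.34 in zfCTT. Replicate 2 was above replicate 1 in all 4 groups, and the groups overlapped. Within each replicate number mSTING was highest, followed by no_transgene and dCTT, and zfCTT was lowest. The reads behind these values were 51 and 1336, 342 and 1446, 88 and 1653, and 29 and 150. Of 5 genes marking striated muscle and heart, where Cox6a2 is the usual isoform, 1 came to 1 RPKM or more in 2 libraries, and the list summed to 0.311 to 1.48 RPKM.

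**Figure D4:**
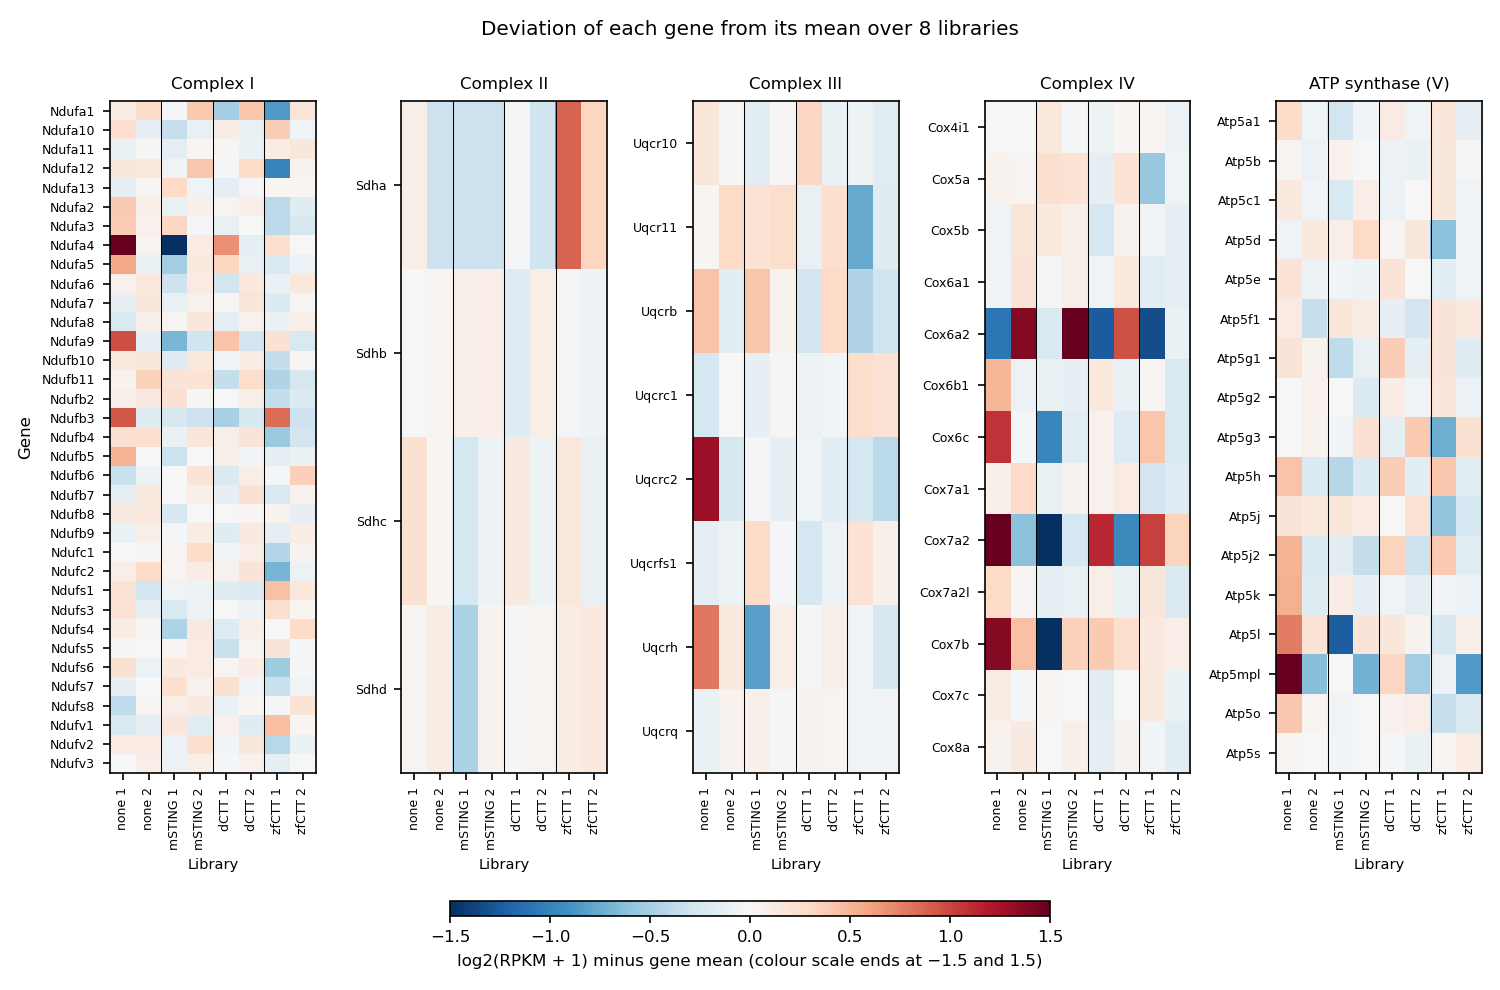
Deviation of 77 tested subunit genes from their own means over 8 libraries on the log2(RPKM + 1) scale, by complex (red above, blue below the mean; none is no_transgene). Ndufa4, Cox7b and Cox7a2 are dark blue in mSTING replicate 1 and dark red in no_transgene replicate 1, and Sdha is red in both zfCTT libraries.

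The typical subunit gene varied little between replicates. The SD within groups had a median of 0.188 over the members on the log2(RPKM + 1) scale, beside 0.232 over all tested genes and 0.241 over 1444 genes of like level. It exceeded 0.5 for 11 members (14.1%), beside 14.5% of all tested genes. The steadiest over all libraries was Uqcrq, a small subunit of complex III, between 131 and 147 RPKM, a 1.12-fold range. Spearman's rho of the within-group SD over the 78 members was -0.35 with the GC content of the transcript, 0.01 with the share of 50-base stretches found in other genes and -0.19 with length, as descriptions. Cox7b had 42.0% GC and Ndufa4 44.1%, but Cox7a2 and Cox6a2 had 51.9% and 52.8%. What sets the libraries apart for these genes was not tested.

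**Figure D5:**
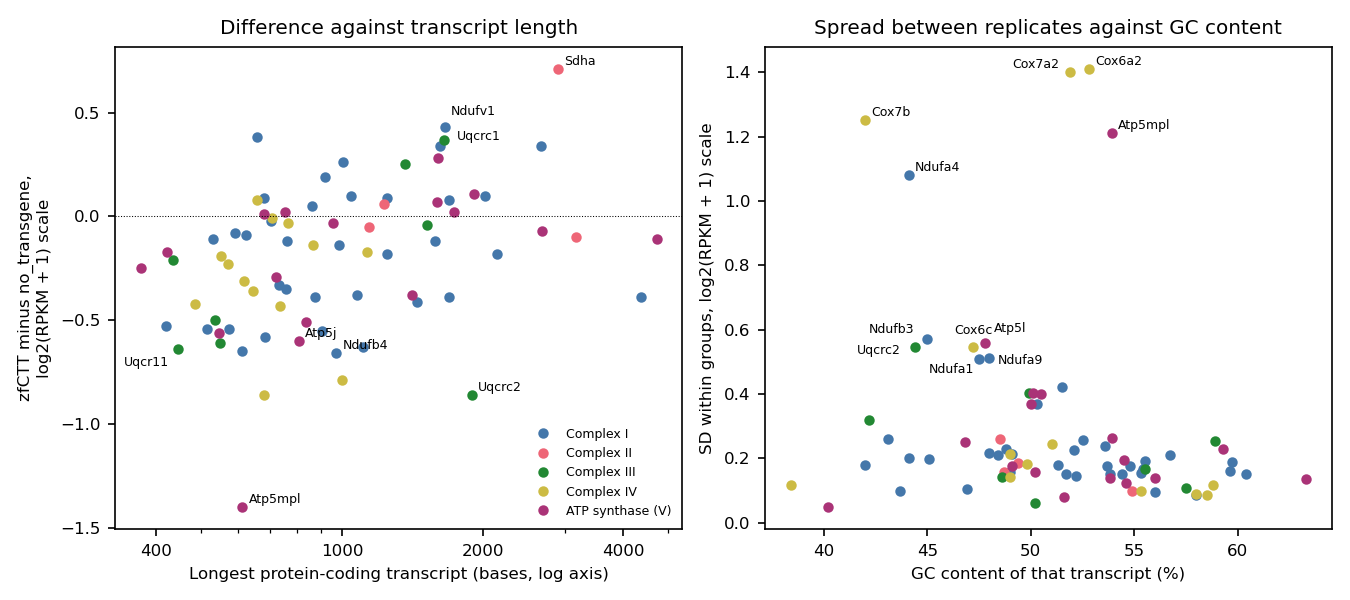
Left, difference between zfCTT and no_transgene (log2(RPKM + 1) scale) against the length of the longest protein-coding transcript (log axis); right, SD within groups against the GC content of that transcript; 78 members, coloured by complex. Shorter transcripts lie mostly below 0 on the left (46 of 58 members of 1500 bases or shorter), and on the right the named members are the 11 with an SD over 0.5.

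The construct without the tail, dCTT, was compared with no_transgene in the same way. Of 78 members 0 passed limma's threshold (0.0% of all genes) and 0 had an unadjusted p under 0.05 (0.267% of all genes). The fit on recovered reads called 0 of all 13457 genes. The members' median difference was -0.08, beside -0.01 over all genes, and ran from -0.12 to -0.02 with libraries left out. Negative were 62 of 78 members (79.5%), among them all 13 of complex IV, beside 53.0% of all genes. Both dCTT libraries lay below both no_transgene libraries for 10 members (12.8%, beside 6.69% of all genes) and above for 0 (beside 7.75%). The largest of these were Ndufb3 (-0.74 ± 0.47), Cox7b (-0.59 ± 0.98), Uqcrh (-0.44 ± 0.35), the hinge protein of complex III, and Atp5l (-0.38 ± 0.46), with limma adjusted p = 1.0 for each. Ndufb3 stood at 95.2 and 43.6 RPKM in no_transgene and 35.1 and 41.6 in dCTT, and without no_transgene replicate 1 its difference was -0.19. Without that library the differences were -0.11 for Cox7b, -0.11 for Uqcrh and -0.10 for Atp5l. Over the members, rho between GC content and the difference was 0.40, and over 9385 protein-coding genes it was 0.64.

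Between dCTT and mSTING 0 of 78 members passed limma's threshold (0.0% of all genes) and 0 had an unadjusted p under 0.05 (2.49% of all genes). The fit on recovered reads called 0 of all 13457 genes. The median was 0.02, beside 0.03 over all genes. Both dCTT libraries were higher for 10 members (beside 16.2% of all genes) and lower for 8 (beside 12.8%). The largest without overlap were Ndufa9 (0.57), Atp5h (0.42), Ndufa10 (0.23) and Atp5e (0.16) on the positive side, and Atp5f1 (-0.34), Uqcrfs1 (-0.30), Cox5b (-0.21) and Cox5a (-0.19) on the negative side, all with limma adjusted p = 1.0. Most of these were smaller without 1 library. Without dCTT replicate 1 the difference was 0.22 for Ndufa9, 0.15 for Atp5h, 0.12 for Ndufa10, 0.07 for Atp5e, -0.06 for Cox5b and -0.02 for Cox5a, and without mSTING replicate 1 it was -0.14 for Uqcrfs1. Without dCTT replicate 2 it was larger, at 0.92 for Ndufa9, 0.69 for Atp5h, 0.26 for Atp5e, -0.37 for Cox5b and -0.35 for Cox5a.

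The 13 subunits encoded by mitochondrial DNA had lower values in zfCTT than in no_transgene. All 13 lay below no_transgene in both zfCTT libraries, beside 20.8% of all genes, with a median difference of -0.98 between zfCTT and no_transgene. In that comparison mt-Atp6 (-1.16 ± 0.18; limma adjusted p = 0.0483) and mt-Atp8 (-1.49 ± 0.21; limma adjusted p = 0.0374), both in the membrane part of ATP synthase, fell. mt-Atp8 stood at 345 and 345 RPKM in no_transgene, 346 and 307 in mSTING, 328 and 455 in dCTT, and 127 and 117 in zfCTT, with no overlap. The 2 genes overlap on the mitochondrial genome, so they share reads.

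Against dCTT the median of the 13 was -1.40, and mt-Atp6, mt-Atp8 and mt-Cytb fell (limma adjusted p = 0.0248, 0.0267 and 0.0428). The dCTT group itself stood above no_transgene, with a median of 0.38 and all 13 positive. In that comparison 0 of 13 passed, beside 0.0% of all genes. mt-Cytb, the cytochrome b of complex III, stood at 489 and 641 RPKM in dCTT and 107 and 189 in zfCTT. Against mSTING the median for zfCTT was -0.97 and 0 of 13 passed, beside 0.119% of all genes. At an unadjusted p under 0.05 there were 8, beside 11.0%. In the comparison with no_transgene, each fit without 1 of the 8 libraries left 0 of the 13 past the threshold, with the smallest adjusted p from 0.0553 (without zfCTT replicate 2) to 0.229 (without zfCTT replicate 1). The fits with no filter, with the exon length trend removed and on recovered reads also called 0 of the 13. Those with protein-coding genes only, with the replicate number as a block and with the GC trend removed called 3, and the other alternatives with all libraries called 1 or 2. Against mSTING, the fit with protein-coding genes only called 3, namely mt-Atp6, mt-Atp8 and mt-Cytb, and the other alternatives called 0. Against dCTT, the fits without 1 library called 0 to 2 and the other alternatives that kept all libraries 0 (no filter) to 6 (replicate block, and GC trend removed). All of the mitochondrially encoded genes tested were negative in each of these fits. Whether the nuclear and mitochondrial subunits differ in their response was not tested.

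The other genes around the chain had 0 calls in the comparison of zfCTT with no_transgene. Over all tested genes 1.08% passed there and 13.4% had an unadjusted p under 0.05. Of 44 tested assembly factors 0 passed limma's threshold, with 6 at an unadjusted p under 0.05 and a median of 0.0. Of 12 regulators of mitochondrial biogenesis and 9 electron carriers and exchange proteins 0 passed and 0 had an unadjusted p under 0.05, with medians of -0.10 and -0.19. Of 78 mitochondrial and 86 cytosolic ribosomal protein genes 0 passed, with 5 at an unadjusted p under 0.05 in each list and medians of 0.0 and -0.14. Cyc1, the cytochrome c1 of complex III, whose symbol lies outside the naming rule, stood at 105 and 96.1 RPKM in no_transgene and 152 and 119 in zfCTT, a difference of 0.41 ± 0.24 (limma adjusted p = 0.518).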

How the data were processed

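RNA of 8 libraries was analysed from the table of RPKM that the authors deposited for 53715 genes, which per the file headers has 1 column per library. Per the submitters' processing notes, which state no roles or order, the tools were cutadapt 1.16 and HISAT2 2.1.0, with mm10 and GRCm38 as builds. How reads were counted, with which annotation and strand rule, is not given in the sources used here. Symbols, coordinates and transcripts came from GENCODE vM21 (GRCm38) and matched 53620 genes. The step between low RPKM values gave each library's depth: 96.79% to 97.52% of values under 200 reads came out whole within 0.05.

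The log2(RPKM + 1) values of the 13475 genes that came to 1 RPKM in 2 or more of 8 libraries were tested with limma 3.58.1 (R 4.3.3), with 1 mean per group, 4 residual degrees of freedom, an intensity trend and Benjamini-Hochberg adjustment within each of 6 contrasts at 0.05. Differences on this scale understate changes of low genes. The test was tried on simulated data first, but the outcome is not given here. How small a difference it can find with 2 libraries a group is therefore not stated. The fit on recovered reads used limma's voom weights on 13457 genes. The share of all genes at an unadjusted p under 0.05 in that fit is not given here. Shared stretches are 50-base words found in transcripts of another gene; 46 members have any, and 29 overlap exons of another gene.

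Members, lists and tests were chosen with earlier results of these data known. Named genes are core subunits, isoforms, the highest and lowest member per complex, and in each contrast the 4 largest differences in each direction without overlap between groups. Cox6a2, Cox7a2, Ndufa4, Atp5mpl, Uqcrq, Ndufc2, Ndufb7, Atp5j and Cyc1 were also described where their values stood out, after these were seen. Alternatives covered pseudocounts of 0.1 and 0.5, filters, scaling, gene class, length trend, recovered reads, a replicate block and leaving out each library. The values of 1 member are not reported here, although it is counted in the totals.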

Additional observations from a re-analysis of the deposited data

How the results depend on the processing

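No member passed the threshold in any of the 6 comparisons under any of the 19 alternatives with limma. Nearest to it came Cox7b in mSTING minus no_transgene, in the fit without mSTING replicate 2, with a difference of -3.95. That fit kept only mSTING replicate 1, where Cox7b stood alone at 6.80 RPKM. Without mSTING replicate 1 the difference was -0.56. The median difference of the members moved by less than the spread between libraries, apart from zfCTT minus dCTT, which kept its sign. There it went from -0.09 to -0.02 with the trend over exon length removed, and from -0.10 to -0.01 when each library was left out in turn, the latter without zfCTT replicate 2. The spread, an SD of library medians, was larger than the median itself for mSTING minus no_transgene (0.134), dCTT minus no_transgene (0.11), zfCTT minus mSTING (0.0977) and dCTT minus mSTING (0.0866). Moves below it therefore do not show that these medians are stable. The sign changed for 2 medians near 0: zfCTT minus mSTING (-0.03) reached 0.01, and dCTT minus mSTING (0.02) reached -0.04. For zfCTT minus no_transgene it ran from -0.22 to -0.08 with libraries left out. Counts over all genes were less steady: 146 genes in zfCTT minus no_transgene became 2 without no_transgene replicate 1, 2 without zfCTT replicate 1, 354 with protein-coding genes only (9449 genes) and 425 with the trend over GC content removed. The GC fit was chosen after seeing the data and ran on the 9399 genes with a coding transcript, so it changed the gene set as well. For the 146 in zfCTT minus dCTT the fits gave 1 without dCTT replicate 1, 1 without dCTT replicate 2, 348 with protein-coding genes only and 355 in the GC fit. The causes were not tested. With 2 libraries a group intervals were wide: 0.11 to 1.30 for Sdha and -1.11 to -0.21 for Ndufb4 in zfCTT minus no_transgene.

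With the replicate number as a block, 0 members passed in every comparison and the median for zfCTT minus no_transgene was -0.16, as without it, while the calls over all genes became 432, 44 and 409 for zfCTT against no_transgene, mSTING and dCTT. The numbers are not shown to pair the libraries: the differences between replicates correlated over genes at 0.264 to 0.762 in 4 of the 6 pairs of groups, but at 0.0364 for no_transgene with mSTING and 0.0318 for mSTING with dCTT.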
